A study of Mus musculus with 40 samples.

Results

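Multipotent progenitors (MPPs) of mouse bone marrow that had kept their H2B-GFP label were compared between mice labelled HIRA KO and mice labelled WT. The 6 libraries, 3 of each label, are the GFP-high MPPs of a study of 40 libraries of blood stem cells (HSCs) and MPPs in 12 groups, and the genes are the 10789 of 16491 listed for these cells that reached 1 FPKM (fragments scaled to gene length and library size) or more in at least 3 of the 6 libraries. All mice were C57BL/6. The alleles named for the label-retention experiment are a floxed Hira gene (Hira fl/fl), the recombinase Mx1-Cre, the doxycycline-dependent transactivator Rosa26-M2rtTA and the reporter TetOP-H2B-GFP. Which of these alleles the WT mice carried, and the ages of the mice, are not given in the sources used here. Mice drank doxycycline (2 mg/ml, sweetened with sucrose at 10 mg/ml) for 6 weeks. It was then stopped, 2 doses of 20 µg poly(I:C) were injected, and cells were sorted by GFP 17 days into the chase, which was 15 days after the second injection. The GFP-low MPPs and the GFP-high and GFP-low HSCs of the same experiment, 3 WT and 3 labelled KO libraries each, are used below for comparison, as are total MPPs and total HSCs of a separate cohort (4 and 4 libraries per cell type), sorted without regard to GFP 1 week after the first dose.

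HIRA is the core of a chaperone complex that loads nucleosomes with the variant histone H3.3 independently of S phase, whereas the bulk histones are made from clusters of replication-dependent genes whose transcripts are used during DNA synthesis. MPPs lie just below HSCs in the blood hierarchy and feed the myeloid, erythroid and lymphoid lineages. A cell that divides shares its H2B-GFP between its daughters, so GFP-high cells are those that divided least during the chase. Poly(I:C) mimics viral double-stranded RNA and sets off an interferon response, which also switches on Mx1-Cre. Mx1-Cre is active in many interferon-responsive cells and not in blood cells alone.

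The 6 libraries held 6.74 M to 9.57 M recovered reads and 10617 to 10688 genes at 1 FPKM or more. At the edge of the filter, 332 genes reached the minimum in exactly 3 libraries (median of their mean levels 1.07 FPKM) and were tested, and 382 reached it in exactly 2 (0.867 FPKM) and were not. KO replicate 3 stood apart. Its mean correlation with the other libraries was 0.9581 against 0.9667 to 0.9736, and it was the highest of the 6 libraries for 27.8% of the tested genes. KO replicate 2 was the only male library by Xist (0.311 against 31.0 to 44.3 FPKM) and Ddx3y. The library of that number was also the male one in the other 3 GFP populations, so libraries of one number may share an animal across populations, which the labels do not say. Results that rest on KO replicate 3 are given with and without it.

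Markers of the sort were present. Kit, the receptor for stem cell factor, stood at 95.7, 122 and 112 FPKM in WT and 145, 159 and 136 in labelled KO, higher in every labelled KO library (log2 difference 0.42, limma's adjusted p = 0.548). Ly6a, which encodes Sca-1 and is itself induced by interferon, stood at 274, 318 and 270 FPKM in WT and 235, 158 and 138 in labelled KO, lower in every labelled KO library (log2 -0.73, SE 0.19, adjusted p = 0.52). Cd34 (90.1 to 111 FPKM) and the progenitor marker Flt3 (22.8 to 46.4) overlapped between the groups, and so did the HSC markers Procr (63.0 to 95.2) and Hlf (32.3 to 46.5). Slamf1, which encodes the HSC marker CD150, was at most 0.501 FPKM in any library. Of the lineage markers, the T cell gene Cd8a, the B cell gene Ms4a1 and the stromal gene Lepr were at 0 in 5 of 6 libraries each, and the T cell gene Cd3e was at most 0.0602 FPKM, whereas the neutrophil gene S100a8 was present in all 6 (1685 FPKM or more).

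Hira, on chromosome 16, did not separate the labels. It stood at 1.48, 1.22 and 1.90 FPKM in WT and 1.92, 1.79 and 1.55 in labelled KO, with overlapping groups (log2 0.13, 95% interval -0.24 to 0.50, limma's adjusted p = 0.919). The exact permutation p was 0.4 (two-sided), where 3 against 3 libraries cannot go below 0.1. An FPKM over the whole gene cannot tell a transcript that lacks the floxed exons from an intact one, so Hira leaves the labels unchecked and the groups are called labelled KO. The partners of HIRA in its complex overlapped between the groups too. Ubn1 had a log2 difference of 0.03, its paralog Ubn2 0.09 and Cabin1 -0.19. Of the 2 genes for H3.3, H3f3a stood at 74.1, 71.6 and 75.3 FPKM in WT and 90.0, 84.3 and 115 in labelled KO, higher in every labelled KO library (log2 0.37, adjusted p = 0.619), while H3f3b overlapped (log2 0.17). Asf1a, which passes H3 and H4 to HIRA, stood at 8.84, 9.10 and 7.34 FPKM against 10.7, 10.1 and 19.4 (log2 0.56, adjusted p = 0.682), and its highest value belonged to KO replicate 3. Over the 21 genes listed for the HIRA complex, H3.3 and other histone chaperones the median log2 difference was -0.14, with 9 positive and 12 negative members.

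No gene passed the test of labelled KO against WT. Limma called 0 of 10789 genes at an adjusted p under 0.05 (0% in each direction, smallest adjusted p = 0.128), and 0 also passed with limma-voom on recovered reads. At an unadjusted p under 0.05, where 539 genes are the number expected at that threshold, limma gave 390 genes higher in labelled KO (3.61% of those tested) and 375 lower (3.48%). Voom gave 393 and 400. The labels did not overlap for 727 genes higher (6.74%) and 711 lower (6.59%) in labelled KO. Of all tested genes 51% were above 0 and 49% below, and their median log2 difference was 0.00. With libraries rescaled to a common total it was 0.09 and the split at an unadjusted p under 0.05 became 706 higher and 200 lower, so the balance of directions depends on the scaling. List medians given below for rescaled libraries are to be read against that 0.09 and not against 0. KO replicate 3 widened the spread. Without it 538 genes were higher and 573 lower at that threshold, with 0 past the test. Without KO replicate 1 instead, 2 genes passed, the histone gene H2ac20 (lower) and Fpr1 (higher), the receptor that guides neutrophils to formylated peptides. None of the genes named below from these libraries is therefore called changed. In bulk samples, fewer cells of a type and less RNA per cell cannot be told apart.

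Among well expressed genes (mean log2(FPKM + 1) of 3 or more), the labels did not overlap for any of the 8 higher and 8 lower genes of smallest p. A choice by smallest p in these same libraries favours such genes. Dok2, an adaptor that dampens signalling by tyrosine kinase receptors such as Kit, led those higher in labelled KO. It stood at 30.7, 24.8 and 33.2 FPKM in WT and 59.9, 66.2 and 56.1 in labelled KO (log2 1.02, 95% interval 0.70 to 1.34, adjusted p = 0.128). In a joint fit with the GFP-low MPPs, which shares the estimate of the spread, Dok2 was the 1 gene past the test (adjusted p = 0.0485). Its relative Dok3 stood at 3.75, 8.79 and 6.41 FPKM in WT and at 14.8, 14.4 and 15.5 in labelled KO (log2 1.18, adjusted p = 0.334). In both genes the 3 labelled KO libraries lay close together and above all WT libraries.

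Itgb2, the beta chain of the leukocyte integrins, had a mean of 10.7 FPKM in WT and 23.1 in labelled KO, where KO replicate 3 was highest (log2 1.02, adjusted p = 0.238). Prtn3, the serine protease proteinase 3 of neutrophil granules, stood at 171, 187 and 212 FPKM against 309, 323 and 259 (log2 0.64, adjusted p = 0.381), and here KO replicate 3 was the lowest of the labelled KO libraries. Fbp1, an enzyme of gluconeogenesis, had means of 26.9 and 58.3 FPKM (log2 1.08, adjusted p = 0.265), and Car2, carbonic anhydrase 2, stood at 502, 492 and 408 FPKM against 665, 760 and 765 (log2 0.64, adjusted p = 0.35). Glipr2 (means 19.3 and 28.7 FPKM) and 2310040G24Rik (log2 0.91) complete the 8. KO replicates 1 and 2 also lay above all 3 WT libraries for each of the 8 genes. Because the genes were chosen by p in these same libraries, this cannot show which libraries carry the differences.

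On the lower side, 3 of the 8 genes are histone genes, described below, and another encodes a centromere protein. Cenpm stood at 21.6, 22.2 and 20.7 FPKM in WT and 14.3, 10.9 and 12.7 in labelled KO (log2 -0.72, SE 0.13, adjusted p = 0.265). Its neighbour on chromosome 15, Shisa8 (82206173 to 82212848, against 82233762 to 82244773 for Cenpm), stood at 13.0, 12.9 and 18.5 FPKM against 7.90, 6.07 and 4.10 (log2 -1.19, adjusted p = 0.268). Il18, the cytokine interleukin 18, stood at 39.1, 42.8 and 39.9 FPKM in WT and 28.4, 24.9 and 22.5 in labelled KO (log2 -0.67, adjusted p = 0.268). Cnpy3, a chaperone of Toll-like receptors, had means of 39.0 and 23.2 FPKM, and Phf11b had means of 20.0 and 13.4. For all 8 genes the highest labelled KO library lay below the lowest WT library.

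**Figure D1:**
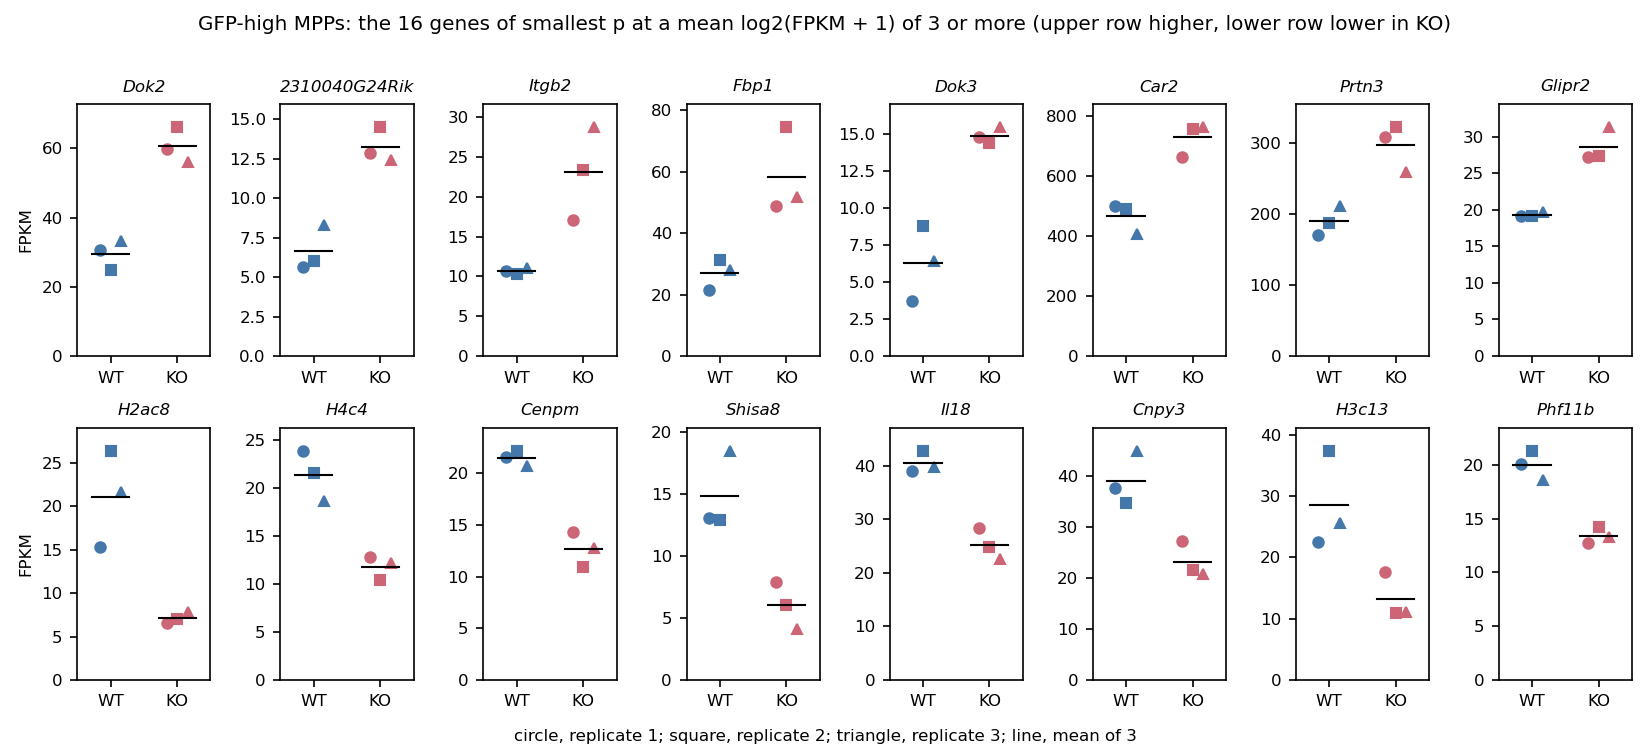
FPKM of the 16 well expressed genes of smallest p in each of the 6 GFP-high MPP libraries (points, with a line at the mean of 3). In the upper row every KO point lies above every WT point, as for Dok2 (56.1 to 66.2 against 24.8 to 33.2 FPKM), and in the lower row below, as for H2ac8. None passed the test after adjustment, and axes start at 0 and differ between panels.

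Replication-dependent histone genes were lower in labelled KO as a group. They encode the H1, H2A, H2B, H3 and H4 proteins that package newly made DNA, and sit in clusters on chromosomes 13, 3 and 11. Their promoters are short, so the stretch just before the start of the 4 tested members of smallest p with an entry in RefSeq's promoter table is shown here, followed by the 2 interferon-stimulated genes of smallest p that hold the motif described with them. Each is 140 bases long, ends at the base before the annotated start, runs 5′ to 3′ on the gene's strand, and uses the build GRCm38.p6. Capitals mark CCAAT (or ATTGG on the other strand) and TATAAA in the histone promoters, and GAAA, any 2 bases and GAAA again (the GAAA repeat) in the interferon-stimulated ones.
H2ac8 (chr13:23571221-23571360, minus strand): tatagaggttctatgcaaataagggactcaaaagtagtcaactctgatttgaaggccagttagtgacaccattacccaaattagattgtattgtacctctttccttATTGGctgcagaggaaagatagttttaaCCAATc
H1f4 (chr13:23622559-23622698, minus strand): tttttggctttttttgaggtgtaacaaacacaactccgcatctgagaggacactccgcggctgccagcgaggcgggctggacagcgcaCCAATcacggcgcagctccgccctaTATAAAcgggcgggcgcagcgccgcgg
H2bc18 (chr3:96269560-96269699, plus strand): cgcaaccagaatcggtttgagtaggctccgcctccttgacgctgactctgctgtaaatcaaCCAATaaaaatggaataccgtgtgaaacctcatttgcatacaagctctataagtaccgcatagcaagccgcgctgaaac
Hist1h2an (chr13:21787249-21787388, minus strand): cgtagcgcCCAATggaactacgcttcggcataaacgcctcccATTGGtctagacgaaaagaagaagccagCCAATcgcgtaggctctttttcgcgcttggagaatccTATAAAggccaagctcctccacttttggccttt
Oas3 (chr5:120777660-120777799, minus strand): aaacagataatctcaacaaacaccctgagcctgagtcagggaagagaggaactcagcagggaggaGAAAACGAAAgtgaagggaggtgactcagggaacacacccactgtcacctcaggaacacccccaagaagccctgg
Irgm1 (chr11:48871421-48871560, minus strand): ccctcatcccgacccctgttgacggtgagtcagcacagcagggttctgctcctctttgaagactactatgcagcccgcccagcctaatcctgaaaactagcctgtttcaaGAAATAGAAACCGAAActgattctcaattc

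CCAAT is the box bound by the factor NF-Y, TATAAA a form of the TATA box, and the GAAA repeat the core of the element bound by interferon-activated factors. Both strands were searched. CCAAT stood in 26 of the 30 tested histone genes with an entry (86.7%), against 31.6% of the 8679 tested genes and 26.5% of all 27025 genes in the promoter table. TATAAA stood in 13 of 30 (43.3%) against 3.66% and 8.46%. In the stretches shown, Hist1h2an held 3 CCAAT matches and a TATAAA, and H1f4 held CCAAT and TATAAA. The GAAA repeat stood in 15 of the 42 tested interferon-stimulated genes with an entry (35.7%) against 1.74% of tested and 1.71% of all genes, with 2 overlapping matches in Irgm1. Histone genes are copies of one another, so these promoters are not independent. The matches describe the letters of the window and show no binding.

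H2ac8, an H2A gene, stood at 15.3, 26.4 and 21.7 FPKM in WT and 6.56, 7.02 and 7.86 in labelled KO (log2 -1.41, 95% interval -1.85 to -0.97, limma's adjusted p = 0.128). H1f4, a linker histone gene, stood at 5.88, 6.57 and 5.56 FPKM against 2.63, 1.61 and 2.11 (log2 -1.18, adjusted p = 0.128). H4c4, an H4 gene, stood at 23.8, 21.5 and 18.6 FPKM against 12.8, 10.4 and 12.2 (log2 -0.80, adjusted p = 0.238). In each the highest labelled KO library was below the lowest WT library. H2bc18, an H2B gene, had means of 6.37 and 2.73 FPKM, Hist1h2an, an H2A gene, 5.06 and 1.38, and H3c13, an H3 gene, 28.5 and 13.2. H2ac20 was almost constant in WT (6.12, 6.14 and 6.09 FPKM) and stood at 2.79, 0.704 and 0.887 in labelled KO (log2 -1.63). Without KO replicate 1, its highest labelled KO value, H2ac20 passed the test.

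Of 64 listed histone genes, 34 were tested, and 30 of the 34 were lower in labelled KO (88.2%, against 49% of all tested genes). At an unadjusted p under 0.05 there were 16 lower (47.1% against 3.48% of all genes) and 3 higher, and 13 were lower with no overlap (38.2% against 6.59%). The list's median log2 difference was -0.62, and the mean of its members per library was 2.60, 2.56 and 2.59 in WT and 1.99, 1.93 and 2.14 in labelled KO, on the log2(FPKM + 1) scale, with no overlap. The summed level of the listed genes was 278 to 294 FPKM in WT and 172 to 224 in labelled KO. Leaving out any 1 library gave list medians of -0.49 to -0.70. One member, H2ac10, passed the filter through WT libraries only.

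The families differed in value. The 10 tested H2A genes had a median of -0.99, the 4 H1 genes -0.69, the 6 H3 genes -0.51 and the 6 H4 genes -0.50, while the 8 H2B genes had one of -0.15. The 4 members higher in labelled KO were H2bc4 (13.7, 13.8 and 18.8 against 18.6, 28.8 and 51.3 FPKM, highest in KO replicate 3), H1f2 (8.88, 10.3 and 13.0 against 13.5, 18.1 and 13.1), H2ac11 and H2bc14. H4c9, among the more abundant members at 25.9 to 40.6 FPKM, was at about the same level in both labels (log2 -0.03). Histone genes are near copies of each other and the reads of one may be counted for another, and libraries of polyA RNA catch only part of their mostly unpolyadenylated transcripts. The values therefore need not hold for all histone mRNA or for each gene alone.

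**Figure D2:**
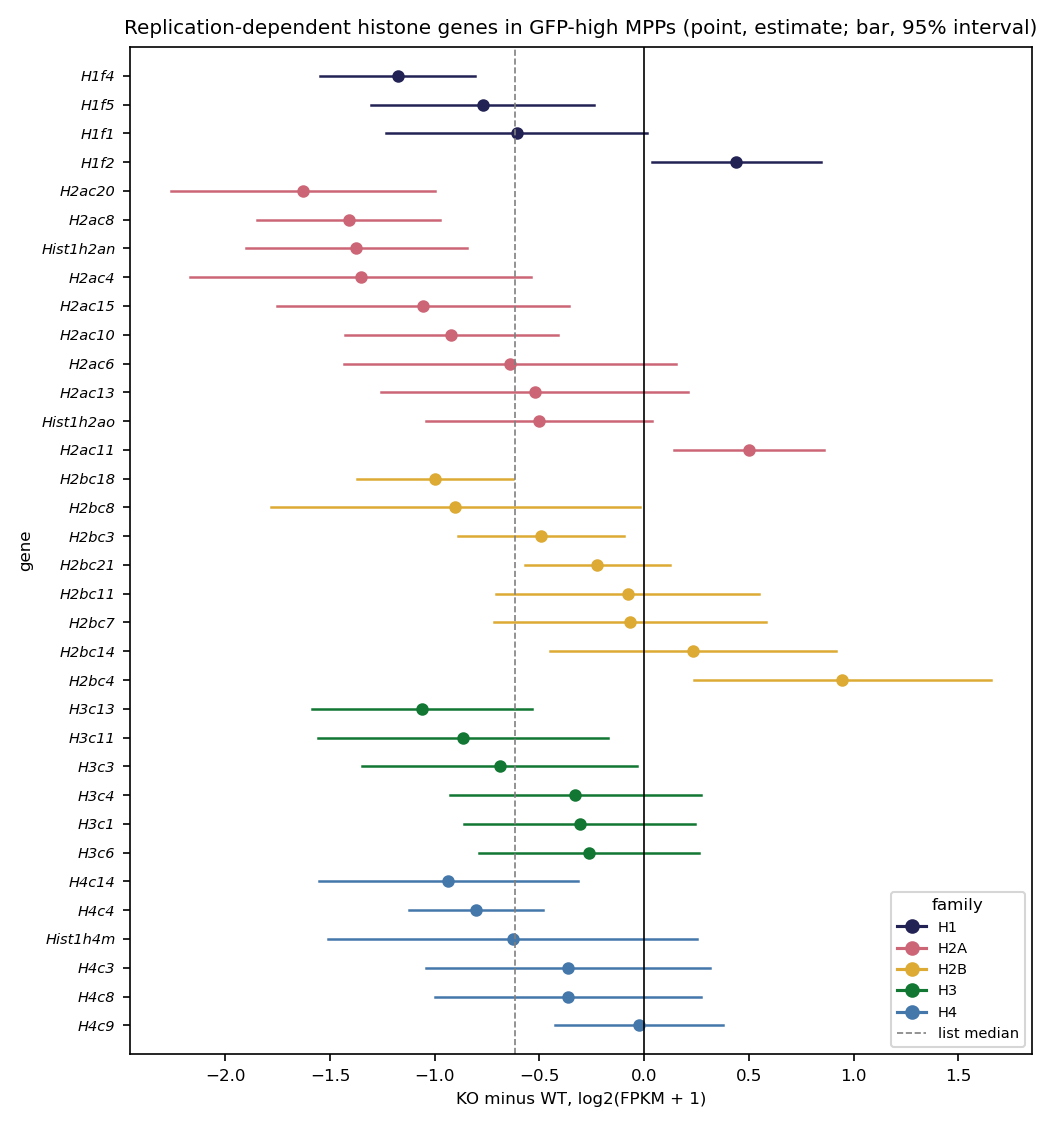
Log2 difference, labelled KO minus WT, of the 34 tested replication-dependent histone genes (points, with bars for limma's 95% interval), coloured by family, with the list median of -0.62 as a dashed line. Of these 34 genes 30 lie left of 0, and H2bc4, H1f2, H2ac11 and H2bc14 lie right of it.

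Genes of DNA replication were lower in the labelled KO libraries 1 and 2 but not in KO replicate 3. Over the 57 genes listed, 49 had a negative difference, with a median log2 of -0.25, and 17 were lower at an unadjusted p under 0.05 (29.8% against 3.48% of all genes). KO replicates 1 and 2 both lay below every WT library for 45 of the 57 (78.9% against 13.9% of all tested genes). The list's mean level was 3.85, 3.93 and 3.77 in WT and 3.48, 3.37 and 3.93 in labelled KO, so KO replicate 3 stood within the WT range. Without KO replicate 3 the median was -0.44 and 38 members were lower at that threshold, and without KO replicate 2 it was -0.16 with 12. Without WT replicate 1, WT replicate 2 or KO replicate 1, 11 were. It was -0.14 with 3 lower without number 2 of both labels, and -0.16 with 10 lower with libraries rescaled to a common total.

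A few replication genes were lower in all 3 labelled KO libraries. Dnmt1, which copies DNA methylation onto the new strand, stood at 16.9, 18.3 and 17.4 FPKM in WT and 12.8, 11.4 and 12.2 in labelled KO (log2 -0.50, SE 0.12, adjusted p = 0.46). Gins2, part of the helicase that opens replication forks, stood at 6.51, 6.59 and 7.36 FPKM against 4.73, 4.11 and 4.48 (log2 -0.52, adjusted p = 0.492), and Mcm3, part of the same helicase, at 69.0, 73.1 and 66.3 against 49.3, 45.2 and 57.0 (log2 -0.46, adjusted p = 0.52). Other members followed KO replicate 3. Rrm2, a subunit of ribonucleotide reductase, stood at 18.6 and 20.0 FPKM in KO replicates 1 and 2, at 60.3 in KO replicate 3 and at 21.6 to 30.9 in WT.

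Mitosis genes showed the same split of the labelled KO libraries more strongly. Of 63 tested members 53 were negative (median log2 -0.21, 6 lower at an unadjusted p under 0.05, or 9.52% against 3.48% of all genes), but KO replicate 3 was the highest of all 6 libraries for 38 of them (60.3% against 27.8% of all genes). Top2a, the topoisomerase of dividing cells, stood at 13.3, 12.6 and 10.2 FPKM in WT, 5.18 and 6.23 in KO replicates 1 and 2 and 11.01 in KO replicate 3 (log2 -0.67, adjusted p = 0.579). Prc1, which organises the spindle midzone, stood at 3.58, 4.09 and 3.11 FPKM against 1.49, 1.99 and 2.89 (log2 -0.58, adjusted p = 0.556). The list median was -0.48 without KO replicate 3, where 39 members were lower at that threshold, -0.02 (0 members) without KO replicate 1, -0.10 (1 member) without KO replicate 2 and -0.12 (1 member) without WT replicate 2. With libraries rescaled to a common total it was -0.12, with 2 members at that threshold, and without WT replicate 1 it was -0.21, with 1. The mean level of the histone list in KO replicate 3 stayed below that of all WT libraries. KO replicate 3 reached the lowest WT library or more for 17 of the 34 histone genes, against 7361 of all 10789 tested genes. The mean level of the H2B family stood within the WT range, at 2.38 in KO replicate 3 against 2.31, 2.15 and 2.42 in WT.

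Interferon-stimulated genes were lower in labelled KO. Of 55 tested members 50 were negative (90.9%), 19 at an unadjusted p under 0.05 (34.5% against 3.48% of all genes), with none higher at that threshold among the 5 others, and 21 did not overlap (38.2% against 6.59%). Their median log2 difference was -0.30, and -0.26 to -0.35 when any 1 library was left out, with 12 members lower at that threshold without WT replicate 2. It was -0.28 with 6 lower without number 2 of both labels, and -0.22 with 13 lower with libraries rescaled to a common total. The list's mean level was 3.75, 3.90 and 3.81 in WT and 3.51, 3.52 and 3.43 in labelled KO, with no overlap.

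Ifi44, an interferon-induced gene, stood at 8.88, 10.2 and 9.40 FPKM in WT and 4.67, 4.03 and 4.84 in labelled KO (log2 -0.93, SE 0.13, limma's adjusted p = 0.128). Rtp4, a receptor-transporting protein induced by interferon, stood at 28.7, 36.5 and 36.5 FPKM against 22.6, 21.2 and 24.2 (log2 -0.55, adjusted p = 0.475). Oas3, which makes the signal that activates RNase L, stood at 5.21, 5.97 and 7.26 FPKM against 4.42, 3.59 and 3.13 (log2 -0.60), and Irgm1, an immunity-related GTPase, at 19.7, 22.02 and 16.8 against 14.6, 12.7 and 13.9 (log2 -0.48). Irf9, a transcription factor of the interferon response, was also lower in every labelled KO library (means 16.8 and 12.1 FPKM, log2 -0.46, adjusted p = 0.573). Isg15, a ubiquitin-like modifier, overlapped between the labels (9.72, 14.8 and 15.9 against 12.0, 9.38 and 9.30 FPKM).

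Antigen presentation genes, many of which interferon also controls, leaned the same way. In the class I list 19 of 21 members were negative (median log2 -0.25), 5 of them at an unadjusted p under 0.05 (23.8% against 3.48% of all genes). That count was 0 without WT replicate 1, 2 without WT replicate 3 or KO replicate 3, 3 without WT replicate 2, 10 without KO replicate 1 and 0 with libraries rescaled to a common total (median log2 -0.15). Tap1, which carries peptides into the endoplasmic reticulum, stood at 49.0, 43.4 and 40.9 FPKM in WT and 35.9, 35.6 and 22.4 in labelled KO (log2 -0.52, adjusted p = 0.592), and the immunoproteasome subunit Psmb9 at 71.3, 65.0 and 60.5 against 56.1, 52.6 and 41.5 (log2 -0.39, adjusted p = 0.605). KO replicate 3 was the lowest library for 15 of the 21 genes (71.4% against 23.9% of all genes), and the median was -0.15 without it. In the class II list 9 of 11 members were negative (median log2 -0.21). At an unadjusted p under 0.05, 5 were lower (45.5% against 3.48% of all genes) and 1 higher. Only 1 was lower without overlap (9.09% against 6.59% of all genes), and 1 was higher (9.09% against 6.74%). Without KO replicate 3, 6 of 11 were negative, with 1 lower at an unadjusted p under 0.05. Without WT replicate 1 or WT replicate 2 that count was also 1. Ctss, the protease that trims the invariant chain, stood at 58.1, 69.6 and 51.6 FPKM against 32.3, 45.0 and 34.3 (log2 -0.68, adjusted p = 0.47). The invariant chain Cd74 varied widely within each label (208, 165 and 68.4 against 85.1, 55.4 and 31.5 FPKM).

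Genes of granulocyte-monocyte progenitors were higher in labelled KO. Those of mature neutrophils were too, with a median that rested largely on KO replicate 3. Of 28 tested progenitor genes 24 were positive, 11 at an unadjusted p under 0.05 (39.3% against 3.61% of all genes) and 8 without overlap (28.6% against 6.74%). Their median log2 difference was 0.54, and 0.28 without KO replicate 3, and 5 members were higher at that threshold without WT replicate 2. Fcgr2b, an inhibitory Fc receptor, stood at 0.996, 0.876 and 1.54 FPKM in WT and 2.39, 3.76 and 4.17 in labelled KO (log2 1.04, adjusted p = 0.313). Mpo, the peroxidase of neutrophil granules, stood at 122, 54.2 and 64.1 FPKM against 112, 164 and 363 (log2 1.31, adjusted p = 0.548), so its labels overlapped.

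All 16 tested mature neutrophil genes were positive (median log2 0.98), but KO replicate 3 was the highest library for 15 of them, and the median was 0.29 without it and 1.5 without KO replicate 1. At an unadjusted p under 0.05, 6 were higher (37.5% against 3.61% of all genes). Without KO replicate 3, 14 stayed positive and 5 were higher at that threshold. S100a8, a calcium-binding protein that fills the neutrophil cytoplasm, stood at 1813, 2110 and 2451 FPKM in WT, 1685 and 3102 in KO replicates 1 and 2 and 11256 in KO replicate 3. The summed level of the neutrophil list was 4395 to 5983 FPKM in WT, 4108 and 6644 in KO replicates 1 and 2 and 25290 in KO replicate 3. In the same library the erythroid genes were the highest of 6 for 31 of 34 members, and their median log2 difference of 0.24 became -0.13 without it (and 0.09 without WT replicate 2, 0.49 without KO replicate 1, 0.51 without KO replicate 2 and 0.42 without WT replicate 1). The part of neutrophil and erythroid RNA in the other values of KO replicate 3 was not tested. Mmp8, a collagenase of neutrophil granules, stood at 4.07, 2.36 and 3.02 FPKM in WT against 8.70, 7.74 and 35.0, above WT in all 3 labelled KO libraries (log2 1.83, adjusted p = 0.52).

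The list for mast cells and other basophilic or eosinophilic granulocytes had a median log2 difference of 0.75, with 13 of 15 positive, but 0.11 without WT replicate 1 and 0.27 without KO replicate 3. Cpa3, the carboxypeptidase of mast cell granules, stood at 1.53, 0.917 and 2.52 FPKM in WT and 3.34, 6.22 and 4.05 in labelled KO (log2 1.07, adjusted p = 0.47). Mcpt8, a basophil protease, stood at 0.133, 0.410 and 0.488 FPKM against 1.27, 3.21 and 1.69 and passed the filter through labelled KO libraries only. The mast cell and basophil markers Prss34 and Ms4a2 were near 0 in all 6 libraries (at most 0.466 and 0.144 FPKM). C1qa, a complement gene of macrophages, stood at 0.765, 1.89 and 2.11 FPKM against 3.57, 4.40 and 3.40 (log2 0.92, adjusted p = 0.47), with Adgre1, a defining macrophage marker, at most 0.641. The summed level of the macrophage list was 79.3 to 97.6 FPKM in WT and 77.7 to 135 in labelled KO. Whether other cells in the sort contributed to these values was not tested.

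**Figure D3:**
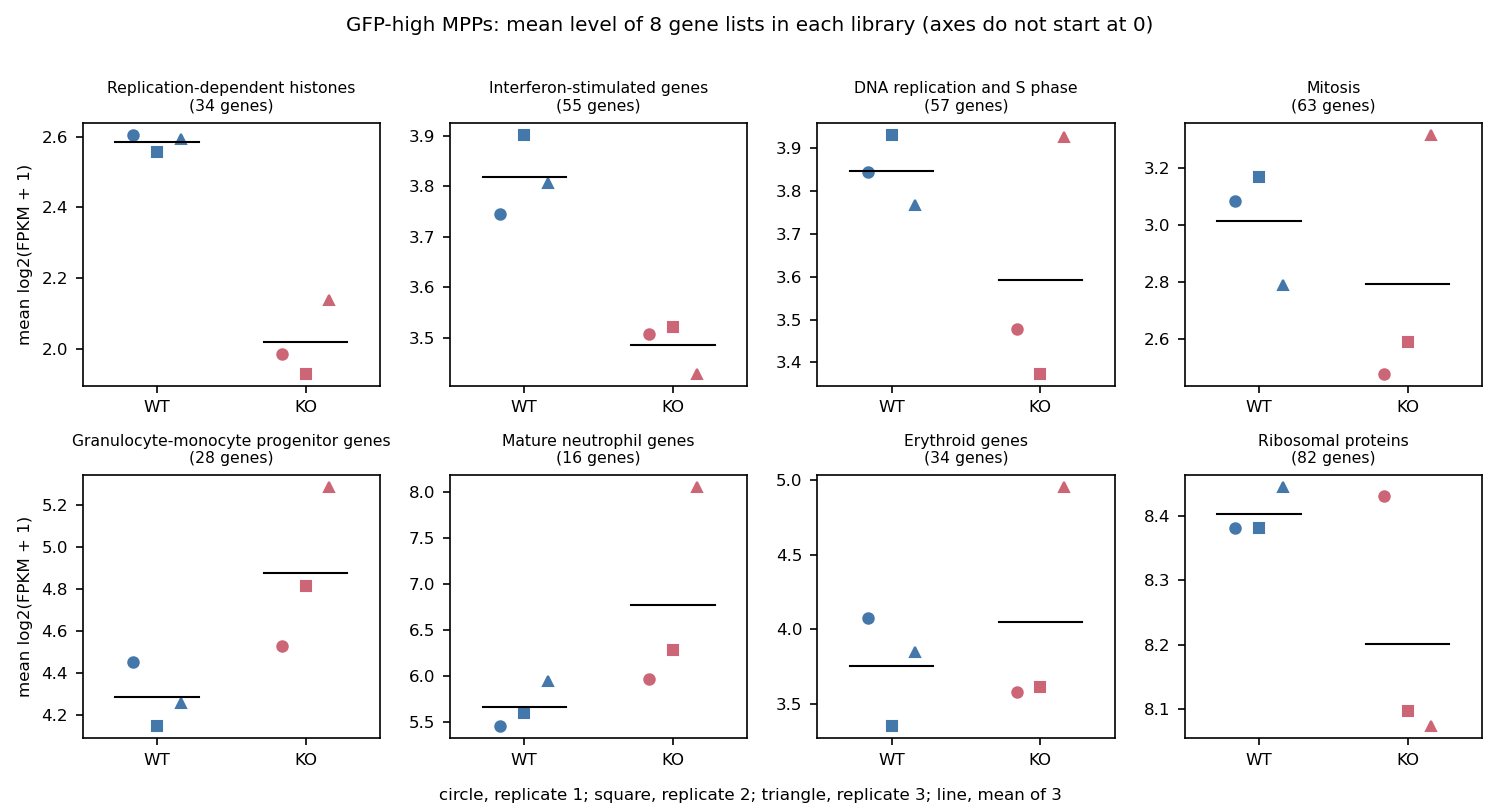
Mean log2(FPKM + 1) over 8 gene lists in each GFP-high MPP library (points, with a line at the mean of 3), on axes that do not start at 0. The labels separate for histone genes (1.93 to 2.14 against 2.56 to 2.60), interferon-stimulated genes and granulocyte-monocyte progenitor genes (4.53 to 5.28 against 4.15 to 4.45). They separate narrowly for neutrophil genes (5.97 to 8.05 against 5.45 to 5.94). KO replicate 3 (triangle) stands away from KO replicates 1 and 2 for replication, mitosis, neutrophil and erythroid genes.

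Of 40 tested genes enriched in HSCs, 24 were positive (median log2 0.11). At an unadjusted p under 0.05, 6 were higher (15.0% against 3.61% of all genes) and 1 lower (2.5% against 3.48%). Without KO replicate 3, 31 were positive (median log2 0.20) and 9 higher at that threshold, and the median was 0.05 without KO replicate 1 and 0.04 without KO replicate 2. Esam, an adhesion molecule of HSCs, stood at 24.0, 31.9 and 28.3 FPKM in WT and 41.8, 50.2 and 37.6 in labelled KO (log2 0.60, adjusted p = 0.505), and Tal1, a master factor of blood development placed here in the erythroid list, at 8.78, 9.33 and 10.5 against 13.9, 15.8 and 12.0 (log2 0.50, adjusted p = 0.546). Ribosomal protein genes had a lower mean level in KO replicates 2 and 3 only. Of 82 tested members 75 were negative (median log2 -0.21), yet their mean level was 8.43 in KO replicate 1, within the 8.38 to 8.44 of WT, and 8.10 and 8.07 in the other labelled KO libraries. At an unadjusted p under 0.05 there were 11 lower (13.4% against 3.48% of all genes), but 54 without KO replicate 1 (median log2 -0.34), 1 without KO replicate 2 and 3 without any of the others. The median was -0.13 without KO replicate 3 and -0.11 with libraries rescaled to a common total.

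Immediate-early and stress genes had 23 of 31 members positive (median log2 0.20). Among them was Nr4a1, an orphan nuclear receptor (1.02, 1.33 and 2.32 against 2.19, 3.00 and 3.64 FPKM, adjusted p = 0.571). The CDK inhibitors and quiescence genes had 17 of 24 positive (median log2 0.10, and 0.06 without WT replicate 1), of which Tob1, an antiproliferative protein, did not overlap (8.35, 11.8 and 6.78 against 13.2, 12.1 and 15.2 FPKM, adjusted p = 0.561). Oxidative phosphorylation (median log2 0.00 over 87 genes), glycolysis (0.01 over 26), p53 targets (0.04 over 25) and inflammatory signalling (-0.02 over 37) had medians close to that of all genes. The sign of the last, and that of ribosome biogenesis genes (-0.03 over 43), turned with libraries rescaled to a common total (0.09 and 0.07). The median of all tested genes rose to 0.09 with it, so both lists stayed close to all genes. Among lymphoid genes, all 5 tested B cell genes were negative (median log2 -0.57), with Vpreb1 at 4.83, 0.883 and 2.12 FPKM against 0.652, 0.247 and 2.35, so their labels overlapped. That median was -0.13, with 2 members positive, without WT replicate 1, -0.14 without KO replicate 1, -0.09 without KO replicate 2 and -1.12 without KO replicate 3.

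Other lists held a few members without overlap, where 6.74% of all tested genes were higher and 6.59% lower in that way. The shares higher and lower were 10.0% and 2.5% for HSC-enriched genes and 14.3% and 10.7% for Polycomb and DNA methylation genes. For p53 targets they were 0.0% and 4.0%. Pdzk1ip1, a small membrane protein enriched in HSCs, stood at 61.8, 81.9 and 74.6 FPKM in WT and 111, 117 and 86.3 in labelled KO (log2 0.52, adjusted p = 0.548), and Tek, the angiopoietin receptor of HSCs and endothelium, at 0.929, 0.903 and 1.09 against 1.38, 3.92 and 2.25 (log2 0.77, adjusted p = 0.548). In the Polycomb and DNA methylation list, with 15 of 28 members positive (median log2 0.035, and -0.03 to 0.03 when 1 library was left out), Ezh2, the methyltransferase of Polycomb complex PRC2, stood at 7.21, 6.84 and 6.01 FPKM against 4.33, 4.47 and 5.71 (log2 -0.40, adjusted p = 0.605). Here KO replicate 3 lay closest to WT, as it did for the replication genes. Psrc1, a spindle protein counted among the p53 targets, stood at 7.20, 7.5 and 6.55 FPKM against 2.65, 4.44 and 4.88 (log2 -0.73, adjusted p = 0.52).

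The lymphoid-primed genes had a median log2 of -0.15, with 11 of 17 negative and none without overlap. It was -0.05 without KO replicate 2, -0.07 without WT replicate 3 and -0.06 with libraries rescaled to a common total. Dntt, the polymerase that diversifies antigen receptors, stood at 14.8, 20.0 and 16.8 FPKM in WT and 10.8, 5.27 and 18.9 in labelled KO, again with KO replicate 3 at the level of WT. All 5 tested T and NK cell genes were positive (median log2 0.37, and 0.215 without KO replicate 3), among them Lat, an adaptor of the T cell receptor that megakaryocytes and mast cells also use (10.1, 10.9 and 12.3 against 15.9, 17.8 and 14.2 FPKM, adjusted p = 0.546), and the transcription factor Gata3 (3.35, 4.20 and 4.84 against 5.87, 5.71 and 5.12, adjusted p = 0.682). The defining T cell markers Cd3e and Cd8a were at or near 0 in the same libraries. Megakaryocyte and platelet genes had a median log2 of 0.11, with 13 of 21 positive (0.11 to 0.21 when 1 library was left out), and apoptosis genes one of 0.05, with 14 of 24 positive (-0.03 without KO replicate 3). The 5 tested stromal and endothelial genes had a median of -0.01 (0.09 with libraries rescaled to a common total).

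**Figure D4:**
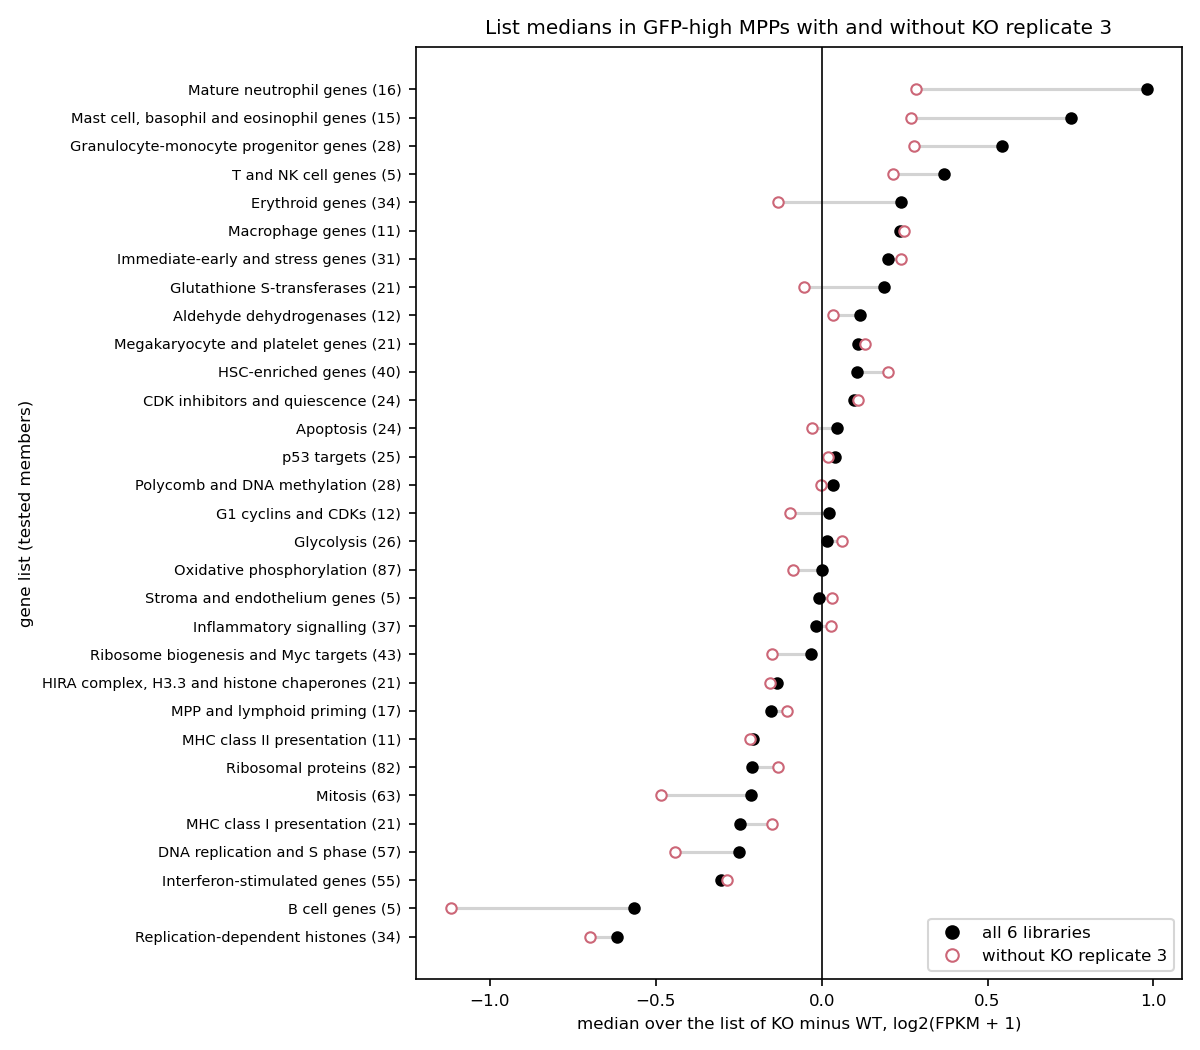
Median log2 difference, labelled KO minus WT, of each gene list in GFP-high MPPs with all 6 libraries (filled) and without KO replicate 3 (open), with the number of tested members in brackets. The medians for neutrophil genes (0.98 and 0.29), erythroid genes (0.24 and -0.13) and mitosis genes (-0.21 and -0.48) move with that library, and those of histone genes (-0.62 and -0.70) and interferon-stimulated genes (-0.30 and -0.28) move less.

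To ask whether these values differ from those of cells with another history, the labelled KO minus WT difference was compared with that of 3 other populations, each taken within its own table. Against GFP-low MPPs, the cells of the same type that had divided more, limma called 0 of 10417 genes in either direction (0%, with 281 at an unadjusted p under 0.05 and a smallest adjusted p of 0.999). Against GFP-high HSCs it called 0 of 10512 (0%, 288 at that threshold, smallest adjusted p = 1). Against total MPPs it called 0 of 10121 (0%, 792 at that threshold, smallest adjusted p = 0.324). The balance at that threshold, 144 higher and 137 lower against GFP-low MPPs and 394 and 398 against total MPPs, became 191 and 87, and 784 and 166, with libraries rescaled to a common total. In none of these was a gene particular to the GFP-high MPPs by the test. Intervals of the differences were wide. That of H2ac8 between GFP-high and GFP-low MPPs ran from -1.14 to 0.47.

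The values set side by side put histone genes low in all 4 GFP populations. Their list median was -0.62 (GFP-high) and -0.55 (GFP-low) for MPPs and -0.52 (GFP-high) and -0.36 (GFP-low) for HSCs, against 0.23 in total MPPs and 0.10 in total HSCs, where 54 and 55 members were tested. The difference of the H2ac8 values, GFP-high minus total MPPs, was -1.69 on the log2 scale (95% interval -2.35 to -1.04, adjusted p = 0.324). H2ac8 stood at 48.2 FPKM in WT and 57.7 in labelled KO total MPPs. The mitosis list had medians of -0.21 (GFP-high), 0.05 (GFP-low) and 0.64 (total) for MPPs, and DNA replication genes -0.25, -0.18 and 0.33 in that order, against -0.35 and -0.32 for GFP-high HSCs. The total MPPs differ from the GFP-high MPPs in cohort, time after poly(I:C), GFP gate and the table's processing at once, which cannot be told apart.

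Without KO replicate 3 the comparison with total MPPs called 50 genes, 41 with a lower and 9 with a higher difference in GFP-high MPPs. Those were 0.405% and 0.0889% of the 10121 tested. All 50 had the same direction with all libraries, but both fits share every library except KO replicate 3, so the direction had little room to differ. The 41 lower included 14 of the 62 tested mitosis genes (22.6%) and 5 of the 56 tested DNA replication genes (8.93%). They included Ccna2, cyclin A2 (log2 -2.08, adjusted p = 0.0352, against -1.71 and 0.324 with all libraries), Top2a (-1.56, adjusted p = 0.0406) and Cdk1, the mitotic kinase (-1.43, adjusted p = 0.0416). The smallest adjusted p belonged to Tmem158 on the higher side (log2 2.22, adjusted p = 0.000214), which stood at 3.49, 4.78 and 4.37 FPKM in WT, 8.31 and 7.70 in KO replicates 1 and 2 and 2.47 in KO replicate 3. These GFP-high values alone give less than 2.22. The difference also takes in the total MPPs, whose Tmem158 values are not given here.

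Interferon-stimulated genes had a median between -0.20 and -0.33 in all 6 populations, which was -0.31 for GFP-low and -0.25 for total MPPs. Ifi44 had log2 differences of -0.93 (GFP-high), -0.75 (GFP-low) and -0.73 (total) for MPPs and of -0.75, -0.89 and -0.37 for the same gates of HSCs. Dok2 had 1.02, 0.68 and -0.04 for MPPs and 1.17, 1.13 and 0.56 for HSCs in that order. Its means in total MPPs were 22.7 and 22.3 FPKM. The difference of Dok2 between GFP-high and total MPPs was 1.06 (95% interval 0.42 to 1.70, adjusted p = 0.422). Car2 was higher in labelled KO in all 6 populations and passed the test in GFP-low MPPs (adjusted p = 0.0447) and total HSCs (adjusted p = 0.0367). Granulocyte-monocyte progenitor genes had medians of 0.54 for GFP-high and -0.05 for GFP-low MPPs. Elane, neutrophil elastase and a member of that list, stood at 146, 56.4 and 48.7 FPKM in WT and 110, 143 and 299 in labelled KO GFP-high MPPs, so its labels overlapped. Its difference between both gates was 3.24 with an interval of -0.01 to 6.49 (adjusted p = 0.999). That is more than the GFP-high values alone give, and it also takes in the GFP-low values, which are not given here.

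**Figure D5:**
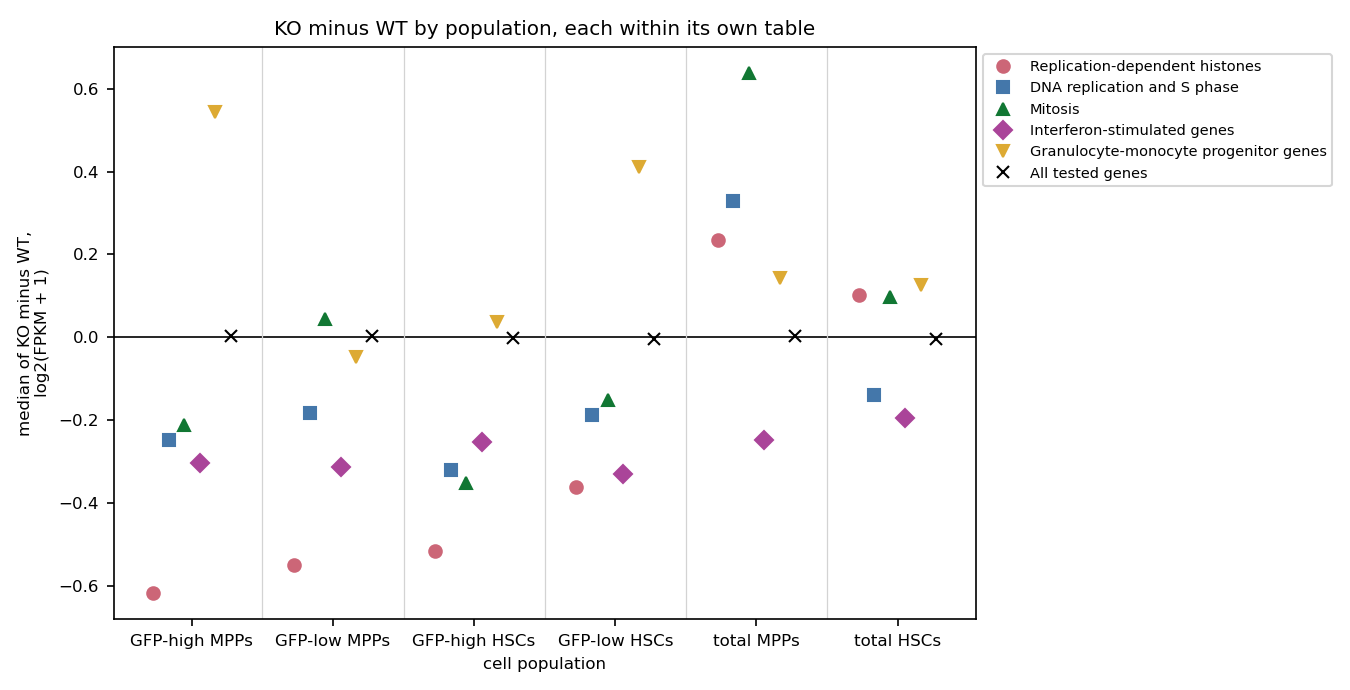
Median log2 difference, labelled KO minus WT, of 5 gene lists and of all tested genes in 6 populations, each computed within its own table. Histone genes lie below 0 in the 4 GFP populations (-0.62 to -0.36) and above it in the total populations (0.23 and 0.10), while interferon-stimulated genes lie below 0 in all 6.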

How the data were processed

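The authors deposited 1 table per population with FPKM values per gene and library. Per the submitters' processing notes, the tools were HOMER, STAR and DESeq2 and the build was mm10. Roles and versions are not given in the sources used here. Libraries were made from polyA RNA with SMART-Seq2 and Nextera XT, per the labels' protocols. Their strandedness is not given in the sources used here, so antisense partners are uncertain, as are near-identical gene copies. Per the values, each table carries its own median-of-ratios scaling, and levels were compared within tables only. FPKM steps gave whole reads for 99.99% of genes (within 0.01), hence the depths. All pairs of libraries differed by more than sampling noise (lowest chi-square 11.7 per gene). The series text calls the libraries biological replicates, and the labels tie none to an animal.

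Limma 3.58.1 in R 4.3.3 was run on log2(FPKM + 1) with an intensity trend, 2-sided, with Benjamini-Hochberg adjustment over all tested genes and a threshold of 0.05. Adjusted p values are limma's. Fold changes on this scale understate those of low genes. Differences of KO effects used 4 group means, with a filter in total MPPs of 1 FPKM in at least 4 libraries. Named genes are the 8 higher and 8 lower of smallest p at a mean log2 level of 3 or more, the HIRA list, 2 members of smallest p per list, sort markers, and 5 per difference. Other genes (such as H2bc4, Mpo, Rrm2, Irf9 and Mcm3) were chosen after their values were seen. The 34 gene lists and the members were chosen with earlier results of these data known, and no list was given a test. The mitochondrially encoded list had no member in the table. Promoters come from RefSeq, and 16484 of 16491 genes matched RefSeq by ID.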

Additional observations from a re-analysis of the deposited data

How the results depend on the processing

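The count of genes past the test was 0 in 18 of the 20 other settings tried. It was 1 in the joint fit with GFP-low MPPs, which was Dok2 (log2 1.02, adjusted p = 0.0485), and 0 to 2 when 1 library was left out. Genes at an unadjusted p under 0.05 numbered 390 higher and 375 lower. They were 591 higher with no filter, 234 higher and 195 lower at a mean of 5 FPKM or more, 706 higher and 200 lower with libraries rescaled to a common total, and 236 to 538 higher and 245 to 573 lower when 1 library was left out. Leaving out number 3 of both labels, an alternative added after seeing the data like limma-voom and the omission of number 2, gave 590 lower. The difference against total MPPs called 0 to 50 genes when 1 library was left out (Gm7429 alone without KO replicate 1, and 50 without KO replicate 3). The differences against the other GFP populations called 0 in every setting. Asf1b had a log2 difference of 0.14, and -0.36 without number 3 of both labels. The median of the glutathione S-transferases was 0.187, from -0.053 (without KO replicate 3) to 0.244 when 1 library was left out, and -0.042 without number 3 of both labels, and that of the HIRA and chaperone list turned from -0.136 to 0.026 without number 2 of both. The causes were not tested. Deviations of same-numbered libraries from their group means correlated at 0.01, 0.06 and -0.12, which shows no pairing by number. Deviations from means of 3 libraries cannot exclude it, and the labels do not say. With the replicate number as a block, 0 genes passed, and 335 were higher and 336 lower at an unadjusted p under 0.05. A block shared by both tables, added after seeing the data, gave 0 genes for the differences against GFP-low MPPs and GFP-high HSCs. With 3 libraries per label, precision is limited for genes of few reads such as H2ac8 (51 to 227 reads).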

Other observations

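Glutathione S-transferases, which conjugate glutathione to reactive compounds, held several members that were higher in labelled KO with no overlap. Of 21 tested, 7 were higher without overlap (33.3% against 6.74% of all tested genes) and 2 lower (9.52% against 6.59%, a share near that of all genes). Gstm2 stood at 1.07, 0.487 and 0.629 FPKM in WT and 2.21, 2.45 and 3.98 in labelled KO (log2 1.15, limma's adjusted p = 0.266). Gstm1 stood at 94.6, 130 and 107 FPKM against 156, 196 and 155 (log2 0.61, adjusted p = 0.5), and Gsta4 at 22.9, 29.6 and 25.2 against 35.3, 37.5 and 39.6 (log2 0.52, adjusted p = 0.5). The Gstm genes are close paralogs, so reads may be shared between them. In the other populations Gstm2 had log2 differences of 2.01 for GFP-low MPPs (adjusted p = 0.0238) and, for HSCs, of 1.37 (GFP-high), 1.102 (GFP-low) and 1.06 (total, adjusted p = 0.00112). Among aldehyde dehydrogenases, Aldh3b1 stood at 0.681, 1.36 and 2.54 FPKM against 3.45, 3.71 and 7.03 (log2 1.19, adjusted p = 0.519).

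Genes of 3 p38 kinases, chosen after their values were seen, were higher in every labelled KO library. Mapk13, the p38 delta kinase on chromosome 17, stood at 1.62, 1.74 and 1.62 FPKM in WT and 4.40, 4.48 and 4.66 in labelled KO (log2 1.05, SE 0.13, limma's adjusted p = 0.128), and had the smallest p of all tested genes. Mapk12 (15, from 89130584 to 89141577) stood at 2.63, 2.90 and 2.24 FPKM against 5.43, 4.98 and 4.65, and its neighbour Mapk11 (15, from 89142482 to 89149606) at 3.01, 2.27 and 2.03 against 4.99, 7.01 and 4.26. Mapk14, the gene for p38 alpha and the neighbour of Mapk13, overlapped between the labels (20.7, 23.3 and 25.3 against 21.3, 24.4 and 16.4 FPKM). None passed the test.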
